A study of Homo sapiens with 4 samples.

Results

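The genes of MHC class I peptide loading described here are TAPBP, TAP1, TAP2, B2M, HLA-B, HLA-C, ERAP1, PSMB8 and PSMB9, 9 of the 33458 genes measured on 4 arrays of SAS cells. TAPBP was chosen by its difference between the groups of these arrays, so its values are given as a description and without a test. The other 8 genes were taken as the rest of its pathway and not for their values, and they were tested. All 9 had a row of their own on the array, and all 9 lay above the background level.

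SAS is a human squamous carcinoma cell line of the tongue. RNA was measured on Clariom D arrays, whose probes cover coding and non-coding human transcripts, with 2 arrays of cells with C6orf141 overexpression and 2 arrays of control cells. The treatment text of the labels describes stable SAS cells, transfected with full-length C6orf141 in a pLVX-IRES-Neo vector and selected with G418, while the array methods speak only of overexpression. The labels call the controls scrambled controls and the methods call them control cells. The labels and methods do not say whether the controls carried an empty vector or were grown in G418, or whether the overexpression cells came from 1 clone. Both groups were grown in the same medium with fetal bovine serum, and no interferon is named for either group. It is not stated whether replicate arrays stand for separate cultures, so every p-value reflects only spread between arrays, which may be technical. In limma that spread is drawn partly from all fitted rows and not from a gene's own values alone.

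MHC class I molecules carry short peptides from inside the cell to its surface, where cytotoxic T cells read them. The proteasome cuts proteins into peptides in the cytosol, the TAP transporter pumps them into the endoplasmic reticulum, and aminopeptidases there trim them. Tapasin, the product of TAPBP, bridges the transporter and the empty class I molecule and favours peptides that bind tightly. Interferon gamma raises most of these genes together in epithelial cells, and many carcinomas lose some of them.

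In 7 of the 9 genes a start region holds letters that match an interferon response or NF-kB element, through which such joint control can act. Windows of 300 bases around each start site, most of them upstream, were taken from RefSeq (GRCh38.p14), which holds 12 such windows for the 9 genes. Within their windows HLA-C and PSMB9 matched neither element. The TAP1 piece printed below, which matched both elements, lies between the starts of TAP1 and PSMB9 but outside the PSMB9 window. Pieces of 7 windows, 1 each for 7 of the genes, are printed because they hold a match to GAAANNGAAA, the core of an interferon response element, or to GGGNNTTNCC, the shape of an NF-kB site. Each reads 5′ to 3′ on the strand of its gene, capitals mark the matches, and a match on the opposite strand appears as its reverse complement.
TAPBP, chr6:33314079-33314198, minus strand: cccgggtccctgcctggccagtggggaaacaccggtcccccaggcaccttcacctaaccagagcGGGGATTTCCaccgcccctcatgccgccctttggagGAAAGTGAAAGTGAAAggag
TAP1, chr6:32853755-32853850, minus strand: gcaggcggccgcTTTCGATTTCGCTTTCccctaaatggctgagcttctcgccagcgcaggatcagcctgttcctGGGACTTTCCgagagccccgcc
TAP2, chr6:32838776-32838809, minus strand: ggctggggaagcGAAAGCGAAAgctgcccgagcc
B2M, chr15:44711361-44711413, plus strand: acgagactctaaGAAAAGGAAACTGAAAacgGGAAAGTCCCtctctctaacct
HLA-B, chr6:31357335-31357368, minus strand: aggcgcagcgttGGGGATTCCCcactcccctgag
ERAP1, chr5:96807922-96808030, minus strand: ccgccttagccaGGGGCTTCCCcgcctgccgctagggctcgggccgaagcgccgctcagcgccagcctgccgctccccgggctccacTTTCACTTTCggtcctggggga
PSMB8, chr6:32844030-32844063, minus strand: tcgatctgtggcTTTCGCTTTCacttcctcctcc
GAAANNGAAA, searched on both strands, matched in 6 of the 12 windows, in TAPBP, TAP1, TAP2, B2M, ERAP1 and PSMB8, and in 3.57% of all 35116 windows of the table. In TAPBP, TAP1 and B2M, matches to it overlap each other, which gives the longer capital runs. GGGNNTTNCC matched in TAPBP, TAP1, B2M, HLA-B and ERAP1, 5 windows of the 12, and in 5.68% of all windows. CCAAT, the core of the NF-Y site, matched in TAP1, B2M, HLA-B, HLA-C, ERAP1 and PSMB9, 6 windows of the 12, and in 34.6% of all windows. These motifs were chosen after the windows had been seen, and a match describes letters and is not evidence that a factor binds there.

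Of the peptide loading complex, TAPBP had the widest difference of the 9 genes, the property it was picked for. TAPBP had a log2 signal of 13.45 and 13.67 on the overexpression arrays, against 13.11 and 12.23 on the control arrays. Both overexpression arrays lay above both control arrays, and control replicate 2 stood well below the other 3. The means were 13.56 ± 0.15 under overexpression and 12.67 ± 0.62 in controls (SD, n = 2 each), a difference of 0.88 on the log2 scale or 1.84-fold. The gap between the 2 control arrays, also 0.88, was as wide as the difference between the groups. The difference was 0.44 without control replicate 2 and 1.32 without control replicate 1.

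TAP1 and TAP2 encode the 2 subunits of the peptide transporter to which tapasin binds. TAP1 had 10.01 and 10.27 on the overexpression arrays, against 10.41 and 9.65 on the control arrays. Both overexpression values lay between the controls, so the groups overlapped. TAP1 differed by 0.11 (SE 0.30, 95% interval from -0.58 to 0.80, unadjusted p = 0.722 by limma), which is 1.08-fold. TAP2 had 11.22 and 11.48 under overexpression, against 11.20 and 10.94 in controls. The groups of TAP2 did not overlap, but its lower overexpression array and its higher control array nearly met. TAP2 differed by 0.28 (SE 0.24, 95% interval from -0.27 to 0.83, unadjusted p = 0.277 by limma), which is 1.21-fold. The gap between the 2 arrays of either group, 0.26, was nearly as wide.

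The class I molecule itself consists of a heavy chain, encoded by HLA-B and HLA-C among others, and the light chain beta-2 microglobulin, encoded by B2M. B2M had 17.19 and 17.13 on the overexpression arrays, against 17.24 and 17.10 on the control arrays. The 4 arrays of B2M were close to each other and the groups overlapped. B2M differed by -0.01 (SE 0.22, 95% interval from -0.53 to 0.50, unadjusted p = 0.951 by limma).

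HLA-B had 14.43 and 14.36 under overexpression, against 14.37 and 13.99 in controls. HLA-C had 14.00 and 14.02 under overexpression, against 14.07 and 13.47 in controls. In both heavy chain genes, 3 arrays lay close together and control replicate 2 was low, so that the groups overlapped. HLA-B differed by 0.21 (SE 0.24, 95% interval from -0.35 to 0.77, unadjusted p = 0.411 by limma). HLA-C differed by 0.24 (SE 0.27, 95% interval from -0.38 to 0.86, unadjusted p = 0.403 by limma). The heavy chain genes resemble each other in sequence, and whether their probes also take up signal from one another was not tested.

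ERAP1 encodes the aminopeptidase that trims peptides in the endoplasmic reticulum. ERAP1 had 14.02 and 14.13 on the overexpression arrays, against 14.05 and 13.87 on the control arrays, and the groups overlapped. ERAP1 differed by 0.11 (SE 0.23, 95% interval from -0.41 to 0.63, unadjusted p = 0.637 by limma). A second array row carries the name ERAP1 with no gene number. That row had 4.95 and 4.33 under overexpression, against 5.22 and 5.08 in controls, below the background level on all 4 arrays.

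PSMB8 and PSMB9 encode catalytic subunits that replace their constitutive counterparts when the immunoproteasome forms. PSMB8 had 13.50 and 13.28 on the overexpression arrays, against 13.00 and 13.60 on the control arrays. PSMB8 was the only one of the 9 genes in which control replicate 2 was the highest array, and both overexpression values lay between the controls. PSMB8 differed by 0.09 (SE 0.27, 95% interval from -0.54 to 0.72, unadjusted p = 0.751 by limma). PSMB9 had 12.96 and 12.96 under overexpression, against 13.59 and 12.68 in controls. The overexpression arrays of PSMB9 were nearly equal and lay between controls that were far apart. PSMB9 differed by -0.18 (SE 0.32, 95% interval from -0.92 to 0.56, unadjusted p = 0.592 by limma). TAP1 and PSMB9 start 488 bases apart in RefSeq and are read in opposite directions. In both genes, and also in B2M and HLA-C, control replicate 1 was the highest array and control replicate 2 the lowest.

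**Figure D1:**
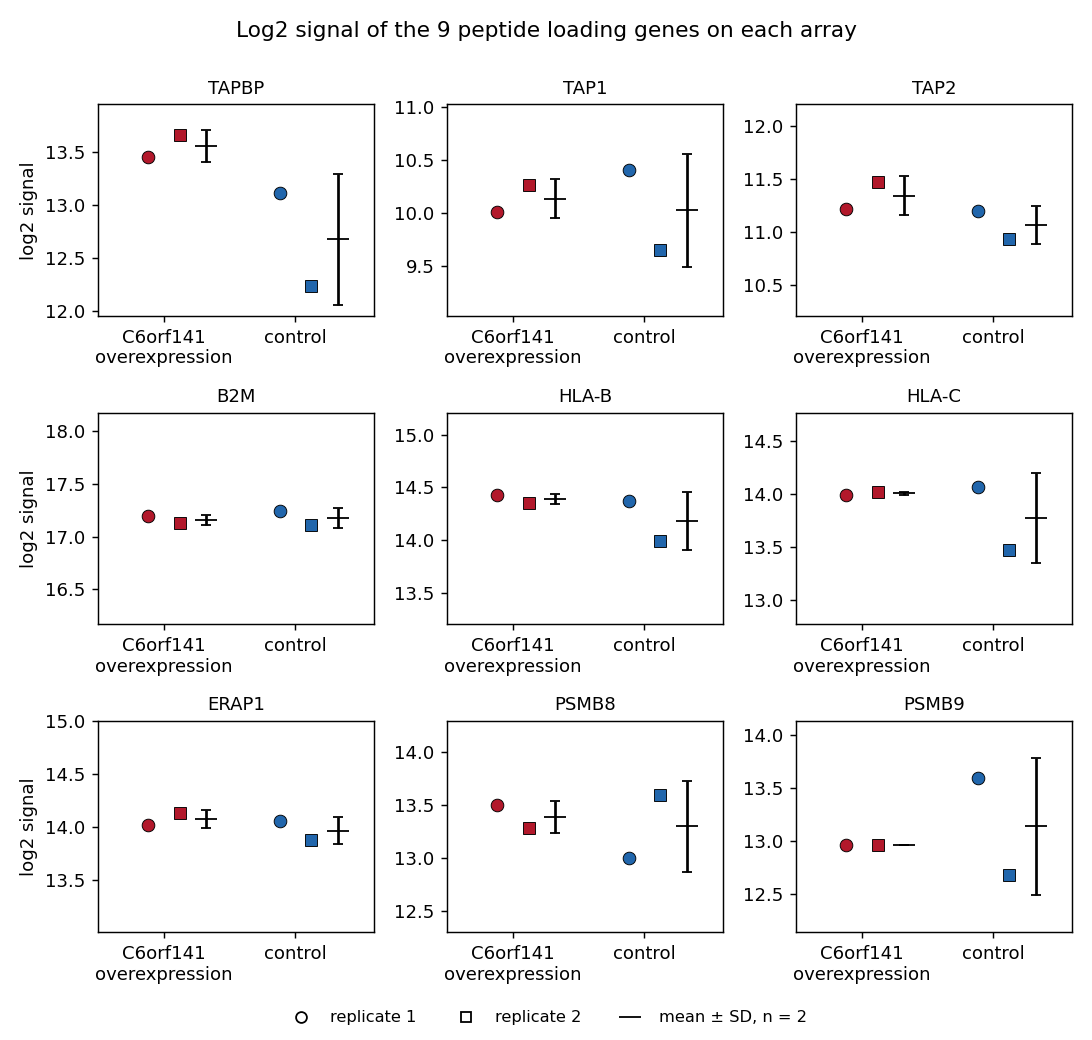
Log2 signal of each of the 9 genes on the 2 C6orf141 overexpression arrays (red) and the 2 control arrays (blue), with circles for replicate 1, squares for replicate 2 and the mean ± SD (n = 2) beside them; every panel spans the same height in log2 units. The groups do not overlap in TAPBP, which was chosen by this contrast, and in TAP2. Control replicate 2 is the lowest array in TAPBP and in 7 of the 8 other genes. Its share over all genes above the background level is 36.2%.

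None of the 8 genes other than TAPBP passed an unadjusted p of 0.05 in limma, and 0 passed after Benjamini-Hochberg adjustment over all 33458 genes, where each had an adjusted p of 1. Over all genes 2.11% passed the unadjusted threshold, 348 higher and 358 lower under overexpression, and among the 16800 genes above the background level 0.917% passed it. After adjustment 0% of the genes passed. The 95% intervals bound the differences of the 8 genes only loosely. Their upper ends lay between 0.50 for B2M and 0.86 for HLA-C, and their lower ends between -0.92 for PSMB9 and -0.27 for TAP2. For HLA-C the upper end corresponds to 1.81-fold.

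Of the 8 genes 6 had a positive difference (75%), against 49.3% of all genes above the background level. The median difference of the 8 genes was 0.11 on the log2 scale, against -0.003 over all genes above the background level. Both overexpression arrays lay above both control arrays in 1 of the 8 genes, TAP2, against 12.8% of the genes above the background level. They lay below both control arrays in 0 of the 8 genes. Of the 16800 genes above the background level, they lay above both controls in 2144 and below both in 2507. TAPBP was chosen on this contrast, so nothing is read from its own separation.

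**Figure D2:**
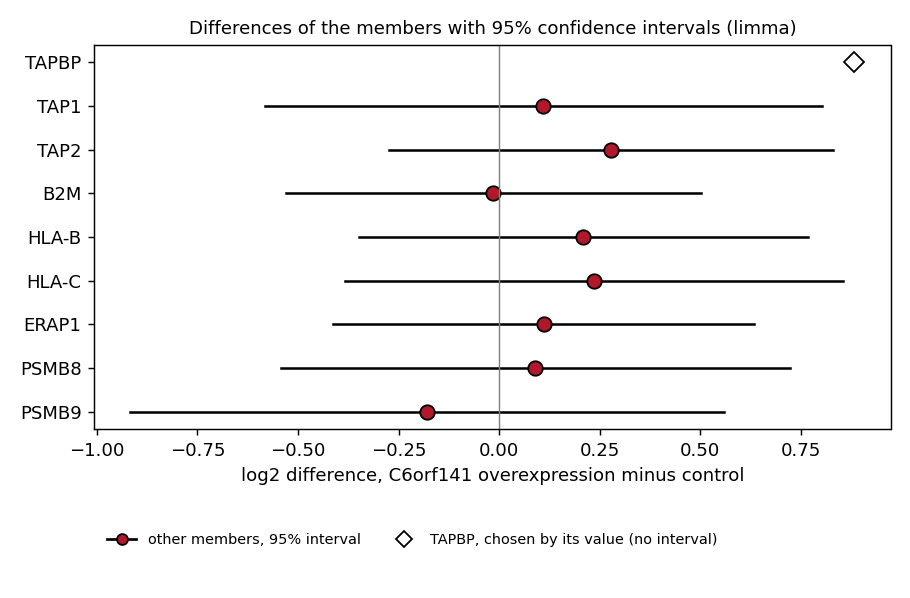
Log2 difference (C6orf141 overexpression minus control) of each of the 9 genes, with the 95% interval from limma as a line for the 8 tested genes; TAPBP, chosen by its value, is an open diamond without an interval. All 8 intervals include 0.

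Control replicate 2 moved with these results. It was the lowest of the 4 arrays in TAPBP and in 7 of the 8 other genes (87.5%), all but PSMB8, against 36.2% of all genes above the background level. Relative to each gene's mean over the 4 arrays, the median deviation of the 8 genes was 0.02 and 0.09 on the overexpression arrays, against 0.08 on control replicate 1 and -0.28 on control replicate 2. Over all genes above the background level these medians were -0.02 and 0.02 under overexpression, against 0.04 and -0.03 in controls. Over all rows the median log2 signal was 4.74 and 4.73 under overexpression, against 4.71 on control replicate 1 and 4.77 on control replicate 2. Medians over so many genes may be set largely by normalization, which the sources do not describe. What made control replicate 2 low in the peptide loading genes was not tested.

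The spread within a group was also uneven. The 2 overexpression arrays differed by at most 0.26 in any of the 8 genes, in TAP1 and TAP2. The 2 control arrays differed by 0.14 in B2M, the smallest of the 8 control gaps, and by 0.91 in PSMB9, the widest. Over all genes above the background level the median gap was 0.16 between the overexpression arrays and 0.27 between the control arrays. More than a 2-fold gap was seen in 52 genes between the overexpression arrays and in 448 genes between the control arrays.

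Leaving out 1 array at a time changed the sign of 5 of the 8 genes. Without control replicate 2 their median difference was -0.02 and 4 of the 8 were positive. Without control replicate 1 the median was 0.34 and 7 of the 8 were positive. PSMB9 differed by -0.63 without control replicate 2 (unadjusted p = 0.0485, adjusted p = 1 by limma), and by 0.28 without control replicate 1. With 1 control array left, that p takes its spread from the 2 nearly equal overexpression arrays and limma's prior, and assumes that the lone control varies like them. TAP1 and HLA-C also changed sign, with -0.27 and -0.06 without control replicate 2 and 0.49 and 0.54 without control replicate 1. PSMB8 went the other way, with 0.39 without control replicate 2 and -0.21 without control replicate 1. B2M, with differences from -0.08 to 0.05, changed sign around 0. TAP2, HLA-B and ERAP1 stayed positive whichever array was left out, with ranges from 0.15 to 0.41, from 0.02 to 0.40 and from 0.02 to 0.20.

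**Figure D3:**
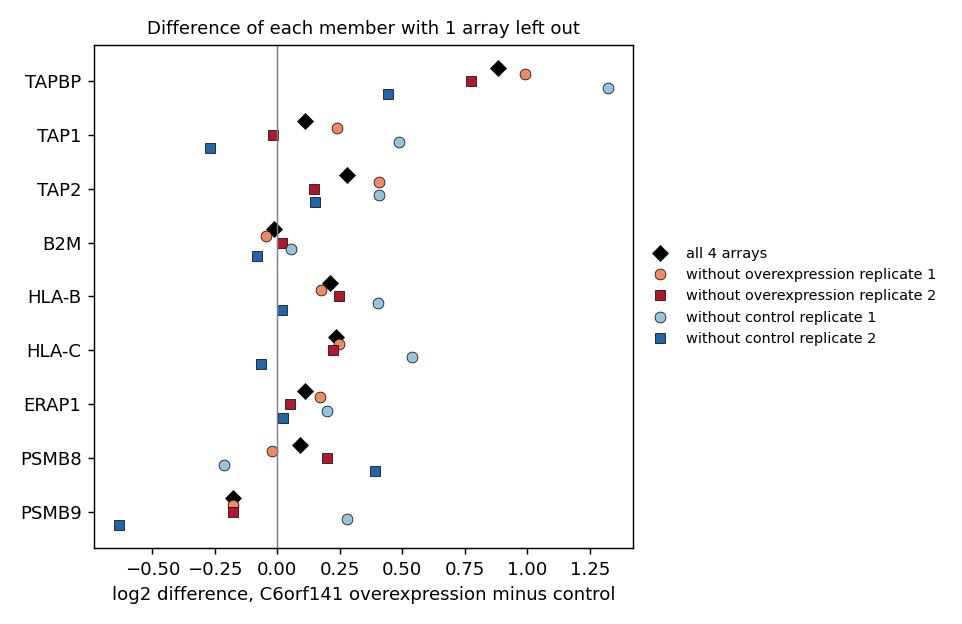
Log2 difference (C6orf141 overexpression minus control) of each of the 9 genes with all 4 arrays (black diamonds) and with 1 array left out at a time (coloured symbols). In every gene but TAP2, leaving out a control array gives both the lowest and the highest value. The gap between those values is widest in TAPBP, TAP1, HLA-C, PSMB8 and PSMB9, and TAPBP stays above 0 throughout.

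Likeness to the pattern of TAPBP over the 4 arrays was measured as the root mean square difference, in log2 units over the 4 arrays, between 2 genes' deviations from their own means, among 16799 genes above the background level. The 5 nearest genes were GORASP1 (0.0686), LLGL1 (0.0797), RETREG2 (0.0842), SLC25A22 (0.0862) and NANOGP4 (0.102). GORASP1 had 7.24 and 7.44 on the overexpression arrays, against 7.05 and 6.13 on the control arrays, and LLGL1 had 10.51 and 10.53 against 9.99 and 9.18. In both, as in TAPBP, control replicate 2 was far below the other arrays, which follows from picking the genes nearest to TAPBP. HLA-C was the nearest of the 8 at rank 896 of 16799, followed by TAP2 at 1370, TAP1 at 1638 and HLA-B at 1721. ERAP1 ranked 3827, B2M 7079, PSMB9 7442 and PSMB8 14105. This distance depends on the size of a gene's changes as well as their shape, so the nearly flat B2M took a middle rank. TAPBP was chosen by the same values, so the ranks are a description and not a test.

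The chromosomal neighbours of TAPBP share its region and, in the case of RGL2, part of its locus. RGL2, which encodes an exchange factor for the GTPase Ral, overlaps TAPBP on the same strand in RefSeq. RGL2 had 11.01 and 10.98 under overexpression, against 10.89 and 10.43 in controls, without overlap between the groups and with control replicate 2 again lowest. RGL2 differed by 0.34 (SE 0.25, unadjusted p = 0.211 by limma). Of 11 neighbours above the background level 9 had a positive difference and 0 passed the unadjusted threshold. Their median was 0.22, and they ranged from -0.41 for RXRB (unadjusted p = 0.176), a retinoid receptor, to 0.34 for RGL2, with CUTA at 0.31 (unadjusted p = 0.203). The part of RGL2 or of the region in the signal of TAPBP was not tested.

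Other members of the 9 also overlap genes in RefSeq. PSMB8-AS1, a long non-coding RNA that overlaps TAP1 and PSMB8, had 7.52 and 7.38 under overexpression, against 7.70 and 7.47 in controls, and differed by -0.13 (unadjusted p = 0.594 by limma). ERAP1 overlaps CAST, which encodes the calpain inhibitor calpastatin, and ERAP2, its partner aminopeptidase. CAST differed by -0.07 (unadjusted p = 0.793) and ERAP2 by -0.14 (unadjusted p = 0.563), both with overlapping groups.

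Around the 9 genes, 14 chaperones and peptide editors of class I assembly were above the background level, and 0 passed the unadjusted threshold. Of these 10 had a positive difference, with a median of 0.06. TAPBPL, the tapasin-related editor that works outside the loading complex, had 9.24 and 9.30 under overexpression, against 9.22 and 9.06 in controls, a difference of 0.13 (unadjusted p = 0.572). PDIA3, which holds tapasin through a disulphide bond, differed by 0.21 (unadjusted p = 0.439) and the lectin chaperone CALR by 0.06 (unadjusted p = 0.788). The smallest p-values of the list belonged to HSP90B1, an endoplasmic reticulum chaperone, at -0.52 (unadjusted p = 0.101), and to PRKCSH and GANAB, the subunits of the glucosidase that prepares glycans for these chaperones, at 0.57 (unadjusted p = 0.125) and 0.33 (unadjusted p = 0.262). In HSP90B1 the values were 8.53 and 7.88 under overexpression, both below the 8.63 and 8.82 in controls. That row was far dimmer than CALR, which had 17.21 and 17.28 under overexpression. Whether it reports the main HSP90B1 transcript was not tested. In PRKCSH the values were 15.07 and 15.44 under overexpression, against 15.14 and 14.22 in controls, so that control replicate 2 was again the array apart.

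Of the other class I heavy chains and class I-like molecules 11 were above the background level, 7 with a positive difference, with a median of 0.04, and 0 passed the unadjusted threshold. MR1, which presents vitamin metabolites to T cells, had 9.02 and 9.48 under overexpression, against 8.91 and 8.76 in controls. The groups of MR1 did not overlap, and it differed by 0.41 (SE 0.25, unadjusted p = 0.14). HFE, an iron regulator, differed by -0.37 (unadjusted p = 0.236) and the lipid-presenting CD1D by -0.20 (unadjusted p = 0.398). In 2 of the 11 genes, among them MR1, both overexpression arrays lay above both controls, and in 1, CD1D, below both.

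Of the other proteasome subunits and activators 12 were above the background level, 6 of them with a positive difference and 0 past the unadjusted threshold, with a median of 0.01. PSMB5, the constitutive subunit that PSMB8 replaces, had 13.36 and 13.34 under overexpression, against 13.20 and 13.08 in controls, a difference of 0.21 (unadjusted p = 0.374). PSMB2, a structural subunit, differed by -0.20 (unadjusted p = 0.456), PSMB10, the third inducible subunit, by 0.14 (unadjusted p = 0.562) and PSME1, a subunit of the interferon-induced activator, by 0.18 (unadjusted p = 0.457). A list of other peptidases, most of them cytosolic enzymes that cut peptides before they reach TAP, had 1 positive difference among 7 genes, with a median of -0.16. The smallest p-values were those of LNPEP, a membrane aminopeptidase of endosomes and so not a cytosolic one, at -0.41 (unadjusted p = 0.132), TPP2 at -0.28 (unadjusted p = 0.24) and BLMH at -0.19 (unadjusted p = 0.453), and 0 passed the unadjusted threshold. In 3 of the 7 genes, among them LNPEP and TPP2, both overexpression arrays lay below both controls, and in 0 above both.

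Upstream of the class I genes, NLRC5, the class I transactivator, was below the background level, with 5.28 and 5.46 under overexpression and 5.27 and 5.06 in controls. IRF1, an interferon-induced factor that binds interferon response elements, had 10.68 and 10.67 under overexpression, against 10.46 and 10.41 in controls. Both overexpression arrays of IRF1 lay above both controls, and it differed by 0.24 (SE 0.22, unadjusted p = 0.299). RFXAP and NFYB, subunits of complexes that bind class I and class II promoters, differed by -0.31 (unadjusted p = 0.222) and -0.32 (unadjusted p = 0.27). Of 20 such regulators above the background level 13 had a positive difference, with a median of 0.03, and 0 passed the unadjusted threshold. In 3 of the 20, among them IRF1, both overexpression arrays lay above both controls, and in 2, among them RFXAP, below both.

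Interferon-induced genes outside antigen presentation gave 7 positive differences among 12 genes above the background level, with a median of 0.02, and 0 passed the unadjusted threshold. The smallest p-values were those of IFI6 at 0.29 (unadjusted p = 0.248), OAS1 at 0.23 (unadjusted p = 0.363) and IDO1 at -0.20 (unadjusted p = 0.451). Control replicate 2 was the lowest array in 2 of these 12 genes (16.7%), in 33.3% of the other proteasome genes, in 50% of the chaperones and of the regulators, and in 63.6% of the other class I genes, of the TAPBP neighbours and of the squamous markers. These shares were not tested against that of the peptide loading genes. Of 11 MHC class II genes only CD74, the invariant chain, was above the background level, at 13.13 and 13.21 under overexpression and 12.91 and 13.19 in controls, a difference of 0.12 (unadjusted p = 0.616).

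**Figure D4:**
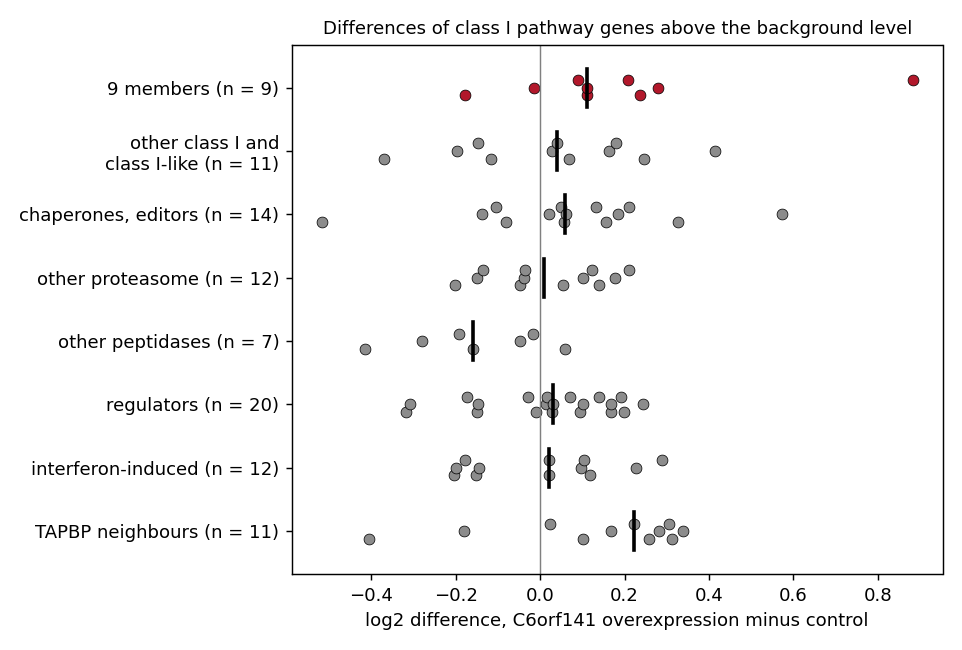
Log2 difference (C6orf141 overexpression minus control) of the genes above the background level in each list, 1 point per gene, with a black bar at the list's median. The 9 peptide loading genes are in red, with TAPBP at 0.88, and none of the tested genes passed an unadjusted p of 0.05 in limma.

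Facts of the whole series that bear on these values are few. C6orf141, the transfected gene, had 11.36 and 12.04 on the overexpression arrays, against 8.57 and 7.92 on the control arrays. C6orf141 differed by 3.46 (SE 0.32, unadjusted p = 6.4e-06, adjusted p = 0.214 by limma), which is 11.0-fold. All 9 peptide loading genes also exceeded 7.72, a stricter level taken from the arrays' negative control rows, while HFE, CD1D, PSMB10, LNPEP, PSMB8-AS1, GORASP1 and NANOGP4 were above the background level but not above 7.72. All 11 squamous epithelial markers measured were above the background level, and all but KRT14 above 7.72. Of 11 haematopoietic markers 4 were (CD68, CD3E, ITGAX and GZMB), of which only CD68 exceeded 7.72, while PTPRC, the defining one, was below it on all 4 arrays, and the log2 of the list's summed signal was 10.95 and 11.10 under overexpression and 11.12 and 10.79 in controls. Of 9 fibroblast and endothelial markers COL1A1 and COL1A2 were above the background level, the first of them also above 7.72, with sums of 9.81 and 9.62 under overexpression and 9.87 and 9.59 in controls. The squamous markers summed to 17.96 and 18.03 under overexpression and 17.98 and 17.90 in controls. Control replicate 2 had the lowest sum of all 3 lists, and their part in the low values of that array was not tested. All arrays are of SAS cells, a cultured line, so these sums describe RNA levels of that line and do not count cells of a type.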

How the data were processed

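The values are gene-level log2 signals that the authors deposited from Expression Console. Per the submitters' notes and the methods, Partek was used for the comparison, with a p threshold of 0.05 and no adjustment named. How the probes were summarised and normalized, on which genome build and with which versions is not given in the sources. Here the log2 signals were not normalized again. After 2995 control rows had been removed from 138745, there were 135750 rows to fit, and the platform annotation gave a single symbol to 36176 of them. Gene numbers matched 25516 of them, and all 9 peptide loading genes, to RefSeq (GRCh38.p14), and 623 older symbols were updated. Where a gene had several rows, the brightest on average was kept. Some listed genes are not analysed here.

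All rows other than controls were fitted by lmFit and eBayes of limma 3.58.1 (R 4.3.3), with two-sided tests, Benjamini-Hochberg adjustment over the genes and a threshold of 0.05. The steps were tested on simulated data. No detection calls came with the values. The background level, 5.65, was set so that 95% of 826 olfactory receptor genes and pseudogenes had a lower mean. All 9 genes also exceeded 7.72, a level that 95% of the negative control rows stayed under on every array. The number of arrays limits the precision.

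The 9 genes, the gene lists and the alternatives were chosen with earlier results of these data known. Named are the 9 genes, the genes above the background level with the smallest p of each pathway list (at most 3), the 5 genes nearest to TAPBP in pattern, and genes that neighbour or overlap the 9. TAPBPL, PDIA3, CALR, PSMB10, NLRC5, the overlapping genes outside the lists and the motifs were singled out after their values were seen. Alternatives were Student's t-test, trend and robust settings in eBayes, quantile normalization, median centring, dropping dim genes, averaging a gene's rows, the replicate number as a block, and fits without 1 array.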

Additional observations from a re-analysis of the deposited data

How the results depend on the processing

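With only 2 arrays a group, the values depend most on which array is used. Leaving out 1 array at a time gave 209 to 925 genes higher and 244 to 668 genes lower at an unadjusted p below 0.05, against 348 and 358 with all arrays. Of the 8 genes other than TAPBP, 0 to 1 then passed, and their median ranged from -0.023 to 0.34. The differences that changed sign ranged from -0.27 to 0.49 (TAP1), -0.082 to 0.054 (B2M), -0.064 to 0.54 (HLA-C), -0.21 to 0.39 (PSMB8) and -0.63 to 0.28 (PSMB9). Averaging all rows of a gene gave 536 higher and 544 lower genes and turned ERAP1 to -0.20, since its second, dim row enters. Student's t-test gave 654 and 710, and genes above the background level only 68 and 86. Trend and robust settings put 1 gene, C6orf141, past the adjusted threshold, where the main setting had 0, and the cause was not tested. Whether the replicate numbers pair the arrays cannot be decided from 1 replicate difference per group. The correlation of those differences was -0.112 over all genes, or -0.257 with dim genes left out. The replicate block gave 299 higher, 326 lower and 1 adjusted gene. Crossing the numbers, an alternative added after seeing the data, gave 373, 380 and 1. No other call on the 8 genes changed under these settings, quantile normalization or centring.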
